A study of Mus musculus with 8 samples.

Results

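The genes described here are 7 genes of cholesterol synthesis and its feedback control, out of 17097 genes with a probe set of their own on the array: Hmgcs1, Idi1, Fdps, Fdft1, Sqle, Lss and Insig1. They are named members of the pathway. No measured value enters the rule that picks them, but they were chosen with earlier results of these data known. Each gene was read from a probe set that carries its symbol alone. Idi1 was the only one of the 7 with more than 1 such probe set, and the one brighter on average was taken.

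Cells build cholesterol in the endoplasmic reticulum from acetyl-CoA, by way of mevalonate, the branched isoprenoid diphosphates, squalene and lanosterol. When membrane sterol runs low, Scap escorts the SREBP transcription factors to the Golgi, where they are cut and released to switch on nearly every enzyme of the route, and when sterol is plentiful the Insig proteins hold Scap back. The liver is a main site of this synthesis and also turns cholesterol into bile acids and lipoproteins, while dividing cells of any kind use the route for new membrane.

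The study compared induced hepatocyte-like cells (iHeps) with the adult hepatocytes they are meant to resemble and the fibroblasts they came from, on Affymetrix perfect-match 3' arrays read as log2 signal. iHeps are epithelial lines that grew out of retrovirally transduced fibroblasts in a hepatocyte medium (Hep medium, with dexamethasone, insulin, fetal bovine serum and growth factors) and were taken at passage 10. Line 4a3 carried Hnf4a with Foxa3, line 4a3CK carried Hnf4a, Foxa3, c-Myc and Klf4, and line 4a1CK carried Hnf4a, Foxa1, c-Myc and Klf4. Each line gave 1 array, so the 3 iHep arrays are 3 factor sets and not repeats of one. Primary hepatocytes (PH), freed from livers of male C57/B6 mice aged 8 to 10 weeks with collagenase and then kept in the same medium, gave 3 arrays, of which the unnumbered one is called PH 3. Mouse embryonic fibroblasts (MEFs) of C57/B6 embryos at day 13.5 gave 2 arrays, and the removal of head and internal organs is stated for MEF 1. The sources do not say that arrays of one group came from separate animals or cultures, so the p-values reflect the spread among arrays, which may be technical.

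PH 3 read above the mean of PH 1 and PH 2 in 93.2% of all genes, by a median of 0.71 on the log2 scale, and for the 7 genes by 0.51 to 1.32. PH 1 and PH 2 were far closer to each other, with a standard deviation of their differences of 0.159, against 0.549 between PH 1 and PH 3 and 0.570 between MEF 1 and MEF 2. The samples carry repository numbers in 2 runs, called submission sets here: set 1 holds MEF 2, the 3 lines and PH 3, and set 2 holds MEF 1, PH 1 and PH 2. Whether the sets were also processed apart is not stated. Of 12 hepatocyte markers, 10 to 11 read above the highest nonspecific control on the PH arrays, 6, 5 and 1 on lines 4a3, 4a3CK and 4a1CK, and 0 to 1 on the MEF arrays. Line 4a1CK, labelled as hepatocyte-like, thus had all but 1 of these markers within the range of the controls. Of 10 fibroblast markers, 0 to 2 read above that level on the lines, 0 to 3 on the PH arrays and 9 to 10 on the MEF arrays.

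The promoters of the genes are shown because SREBPs act on this pathway through short elements close to the start of transcription, usually beside CCAAT and GC boxes. RefSeq's table for GRCm38.p6 held a promoter for 4 of the 7 genes, and the 250 bases before the transcript start that this table uses are printed 5′ to 3′ on the plus strand, the strand of all 4 genes. Capitals mark matches to CACNCCAC, the core of the sterol regulatory element, and to CCAAT, on either strand. The windows lie at chr13:119690101-119690350 for Hmgcs1, chr13:8885356-8885605 for Idi1, chr10:76531355-76531604 for Lss and chr5:28071162-28071411 for Insig1. The Lss window runs past the first base of the annotated gene, 76531565, because the promoter table uses a later start.
Hmgcs1: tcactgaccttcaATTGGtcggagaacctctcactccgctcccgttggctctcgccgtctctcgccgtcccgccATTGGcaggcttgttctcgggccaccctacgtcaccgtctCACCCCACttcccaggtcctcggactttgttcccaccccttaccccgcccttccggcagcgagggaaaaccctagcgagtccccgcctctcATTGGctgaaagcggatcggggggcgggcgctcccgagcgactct
Idi1: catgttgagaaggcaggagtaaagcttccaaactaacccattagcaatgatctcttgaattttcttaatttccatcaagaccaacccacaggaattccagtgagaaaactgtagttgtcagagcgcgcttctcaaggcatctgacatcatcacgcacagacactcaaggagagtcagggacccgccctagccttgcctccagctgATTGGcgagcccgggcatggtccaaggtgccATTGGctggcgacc
Lss: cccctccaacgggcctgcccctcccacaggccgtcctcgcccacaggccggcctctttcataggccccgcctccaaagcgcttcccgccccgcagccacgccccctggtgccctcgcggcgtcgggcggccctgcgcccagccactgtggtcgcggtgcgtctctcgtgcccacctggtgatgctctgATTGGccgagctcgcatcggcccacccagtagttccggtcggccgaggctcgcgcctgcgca
Insig1: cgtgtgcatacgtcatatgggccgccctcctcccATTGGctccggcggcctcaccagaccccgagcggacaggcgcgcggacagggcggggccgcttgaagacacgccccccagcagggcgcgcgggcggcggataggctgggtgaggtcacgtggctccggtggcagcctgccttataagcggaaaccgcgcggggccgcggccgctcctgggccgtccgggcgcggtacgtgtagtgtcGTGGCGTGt
The core CACNCCAC was found in the windows of Hmgcs1, as CACCCCAC beginning 136 bases before the start, and of Insig1, as GTGGCGTG on the plus strand 9 bases before it. It occurs in 5.29% of the 32851 promoter windows of this length in the table. CCAAT was found in 4 of 4 windows, 3 times in Hmgcs1, 2 times in Idi1 and 1 time each in Lss and Insig1, against 33.8% of all windows. The GC box GGGCGG was also found in 4 of 4, against 32.7% of all windows, and the E-box CACGTG in Insig1 alone, against 6.02%. Among the other enzymes of the route, 13 of 14 had a promoter in the table, and 12 of them held CCAAT, 12 GGGCGG, 3 CACGTG and 1 CACNCCAC. No 2 matches in the 4 windows overlapped, and a match here is a run of letters and not a measured binding site. Sqle, Fdps and Fdft1 are not shown.

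None of the 7 genes passed the test in any of the 3 comparisons of cell types. The test was limma's moderated linear model over 8 arrays, and a gene passed at an adjusted p below 0.05 with a log2 difference of at least 1, that is 2-fold. Over all genes, 6.45% passed between iHeps and MEFs, 5.85% between PH and MEFs and 7.13% between iHeps and PH. An unadjusted p below 0.05 was reached by 0 of the 7 between iHeps and MEFs, 0 between PH and MEFs and 1, Insig1, between iHeps and PH. Of all 17097 genes, 3568, 2796 and 3536 reached it in the same 3 comparisons. For Idi1, Fdps, Fdft1, Sqle and Insig1 the widest gap within a group lay between the 2 MEF arrays. For Lss and Hmgcs1, both near the floor of the array, it lay between lines 4a3 and 4a3CK. At least 2-fold higher in MEF 1 than in MEF 2 were 6 of the 7 genes, against 3.56% of all genes. RNA from whole cultures does not tell a smaller share of cells making a transcript from less of it per cell.

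**Figure D1:**
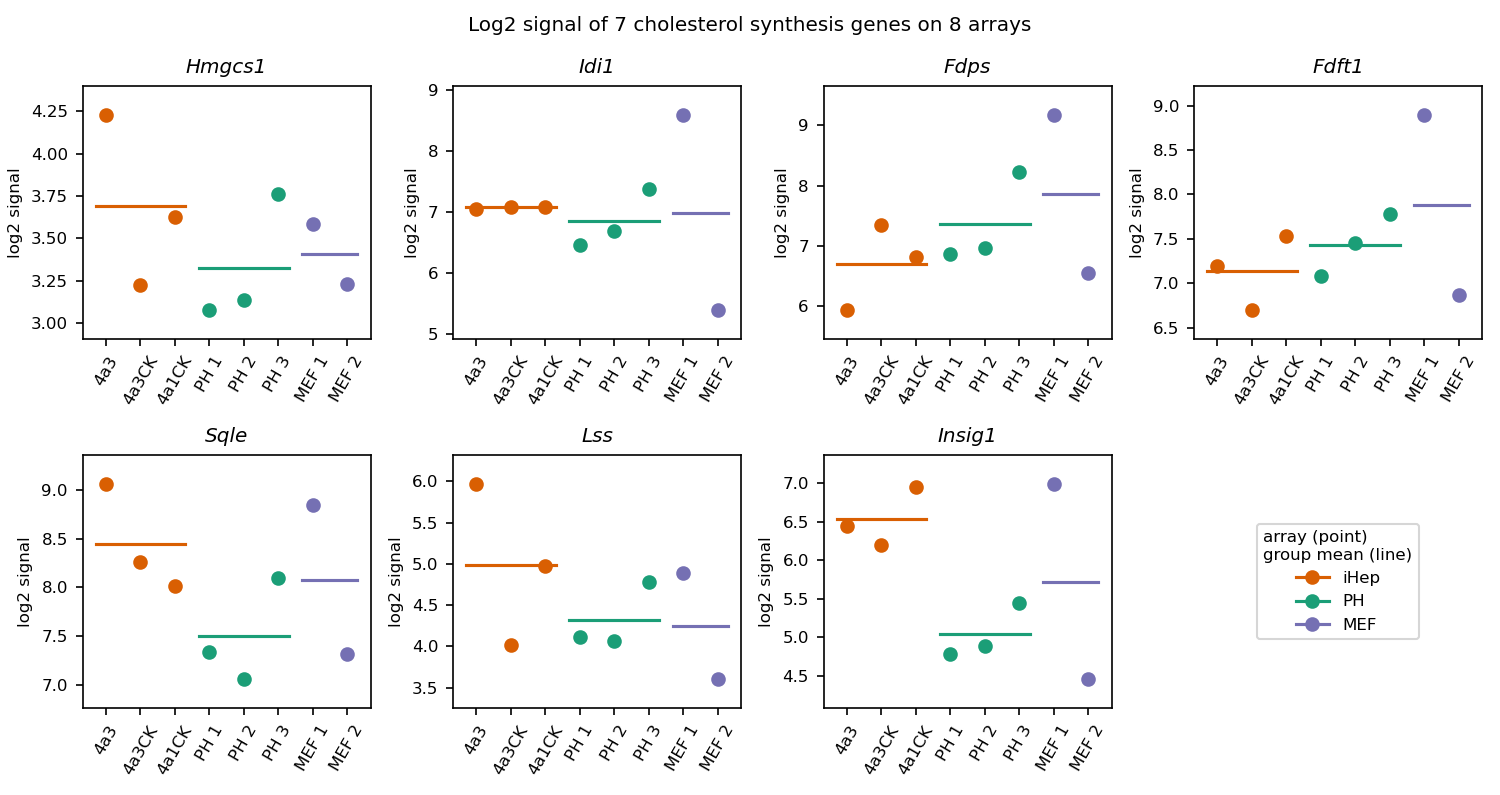
Log2 signal (vertical axis, a separate scale per gene) of the 7 genes on each of the 8 arrays, with iHep lines, PH and MEF arrays from left to right, points for arrays and lines for group means. MEF 1 stands well above MEF 2 in all panels but Hmgcs1, and only for Insig1 do the 3 lines all lie above the 3 PH arrays.

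The first gene of the route in this set is Hmgcs1 (chromosome 13, 119690351 to 119708260), the cytosolic synthase that makes HMG-CoA from acetyl-CoA units. Its signal was 4.23, 3.23 and 3.62 in lines 4a3, 4a3CK and 4a1CK, 3.08, 3.13 and 3.76 in PH 1, PH 2 and PH 3, and 3.59 and 3.23 in MEF 1 and MEF 2. Line 4a3 read highest, the other arrays were mixed across groups, and all groups overlapped. On 0 of 8 arrays did the probe set exceed the highest nonspecific control, though it exceeded the median control on all 8, so its differences lie near the floor of the array.

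Idi1 (chromosome 13, 8885606 to 8892396) interconverts the isoprenoid building blocks isopentenyl and dimethylallyl diphosphate. Its signal was 7.05, 7.09 and 7.09 in the 3 lines in the same order, 6.47, 6.69 and 7.39 in PH 1, PH 2 and PH 3, and 8.59 and 5.40 in MEF 1 and MEF 2. The lines were nearly level with each other, with a standard deviation of 0.02, while the 2 MEF arrays held both the highest and the lowest reading of the 8. A second Idi1 probe set read 6.68, 6.55 and 6.91 in the lines, 6.64, 6.79 and 7.55 in PH and 8.90 and 5.14 in MEF 1 and MEF 2. It too put both extremes in the MEF arrays, but its lines were less level, with a standard deviation of 0.18, and were interleaved with PH 1 and PH 2.

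Fdps (chromosome 3, 89093588 to 89101967) joins those units into farnesyl diphosphate, the last intermediate shared with ubiquinone, dolichol and protein prenylation. Its signal was 5.93, 7.35 and 6.81 in lines 4a3, 4a3CK and 4a1CK, 6.86, 6.97 and 8.23 in PH 1, PH 2 and PH 3, and 9.17 and 6.54 in MEF 1 and MEF 2. Line 4a3 was the lowest of all arrays and MEF 1 the highest. The groups overlapped, since MEF 2 lay below 2 of the lines and below every PH array.

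Fdft1 (chromosome 14, 63145150 to 63181687), squalene synthase, commits farnesyl diphosphate to sterols. Its signal was 7.20, 6.70 and 7.53 in lines 4a3, 4a3CK and 4a1CK, 7.08, 7.45 and 7.78 in PH 1, PH 2 and PH 3, and 8.89 and 6.87 in MEF 1 and MEF 2. MEF 1 was apart from the rest at the top, and the remaining arrays of all 3 groups were interleaved.

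Sqle (chromosome 15, 59315092 to 59331193), squalene epoxidase, carries out the first oxygenation of the route and is one of its rate-limiting steps. Its signal was 9.06, 8.26 and 8.01 in lines 4a3, 4a3CK and 4a1CK, 7.34, 7.06 and 8.10 in PH 1, PH 2 and PH 3, and 8.84 and 7.32 in MEF 1 and MEF 2. The lines lay above PH 1 and PH 2, but PH 3 exceeded line 4a1CK, and the MEF arrays spanned most of the range.

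Lss (chromosome 10, 76531565 to 76557139) closes the rings of squalene epoxide into lanosterol, the first sterol. Its signal was 5.97, 4.02 and 4.97 in lines 4a3, 4a3CK and 4a1CK, 4.12, 4.07 and 4.78 in PH 1, PH 2 and PH 3, and 4.89 and 3.60 in MEF 1 and MEF 2. Line 4a3 was highest and MEF 2 lowest, and line 4a3CK lay below every PH array. The probe set exceeded the highest nonspecific control on 0 of 8 arrays.

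Insig1 (chromosome 5, 28071412 to 28078662) is the sterol-sensing anchor that retains Scap, and is itself a target of SREBPs. Its signal was 6.45, 6.21 and 6.96 in lines 4a3, 4a3CK and 4a1CK, 4.79, 4.89 and 5.44 in PH 1, PH 2 and PH 3, and 6.99 and 4.46 in MEF 1 and MEF 2. The 3 lines lay above the 3 PH arrays with no overlap, while the MEF arrays again held both extremes. The probe set exceeded the highest nonspecific control on 4 of 8 arrays, the 3 lines and MEF 1, and on none of the PH arrays.

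By group mean, Insig1 stood at 6.54 ± 0.38 in iHeps, 5.04 ± 0.35 in PH and 5.73 ± 1.79 in MEFs (SD, n = 3, 3 and 2). Sqle had the same order of groups, iHep above MEF above PH, at 8.44 ± 0.55, 7.50 ± 0.54 and 8.08 ± 1.08 in iHeps, PH and MEFs. Hmgcs1, at 3.69 ± 0.50, 3.33 ± 0.38 and 3.41 ± 0.25, and Idi1, at 7.08 ± 0.02, 6.85 ± 0.48 and 6.99 ± 2.25 in the same groups, shared that order too. Fdps and Fdft1 ran MEF above PH above iHep, with 6.70 ± 0.72, 7.35 ± 0.76 and 7.86 ± 1.86 for Fdps and 7.14 ± 0.42, 7.44 ± 0.35 and 7.88 ± 1.43 for Fdft1 in iHeps, PH and MEFs. Lss was highest in iHeps at 4.99 ± 0.97, next in PH at 4.32 ± 0.40 and lowest in MEFs at 4.25 ± 0.91. In all 7 orders, each neighbour of the MEF mean lay within the standard deviation of the MEF arrays, except for Hmgcs1. There the iHep mean lay 0.28 above the MEF mean, within the standard deviation of the lines. Where the iHep and PH means were neighbours, for Fdps, Fdft1 and Lss, they lay within the larger of their standard deviations.

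Between iHeps and PH, Insig1 showed the largest difference of the 7 genes. It was higher in the lines by 1.50 ± 0.57 on the log2 scale (SE), with a 95% interval of 0.20 to 2.80 and limma's adjusted p of 0.172. Because the PH readings lay within the range of the nonspecific controls, no exact fold is given. As deposited, Insig1 was the only one of the 7 whose groups did not overlap. Of all genes, 26.3% had no overlap in either direction and 5.04% had every line above every PH array. With array medians subtracted, every line also lay above every PH array for Sqle and Idi1. The lowest line and highest PH array, against the gene mean, read 0.10 and -0.50 for Sqle and 0.15 and -0.13 for Idi1. As deposited, the second Idi1 probe set had lines interleaved with PH 1 and PH 2. A limma model of these 6 arrays alone leaves the wide MEF spread out of the error. In it the Insig1 difference was the same and limma's adjusted p was 0.0262. Within submission set 1, where PH 3 is the only hepatocyte array, Insig1 was higher in the lines by 1.09. With the submission set as a block its difference was 1.99. Set 1 differences between iHeps and PH, here and below, subtract PH 3 as deposited. The median over genes was 5.80 in PH 3, against 5.02, 5.06 and 5.00 in lines 4a3, 4a3CK and 4a1CK. With array medians subtracted, Insig1 read -1.04 in PH 3 and 0.75, 0.46 and 1.27 in the lines, against its own mean. Sqle followed with 0.94 ± 0.46 (95% interval -0.12 to 2.00, adjusted p = 0.306 in limma), and by 0.34 within set 1. The other 5 genes lay between -0.66 for Fdps and 0.66 for Lss, with adjusted p from 0.576 to 0.927, and their intervals left room for differences of over 2-fold in at least one direction. The median of the 7 differences was 0.37, against -0.09 over all genes. Beside these values, 6 of 14 cell cycle genes passed as higher in the lines than in PH, against 1.49% of all genes, and 7 of 12 hepatocyte markers passed as lower, against 5.64% of all genes. Their part in the Insig1 difference was not tested.

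**Figure D2:**
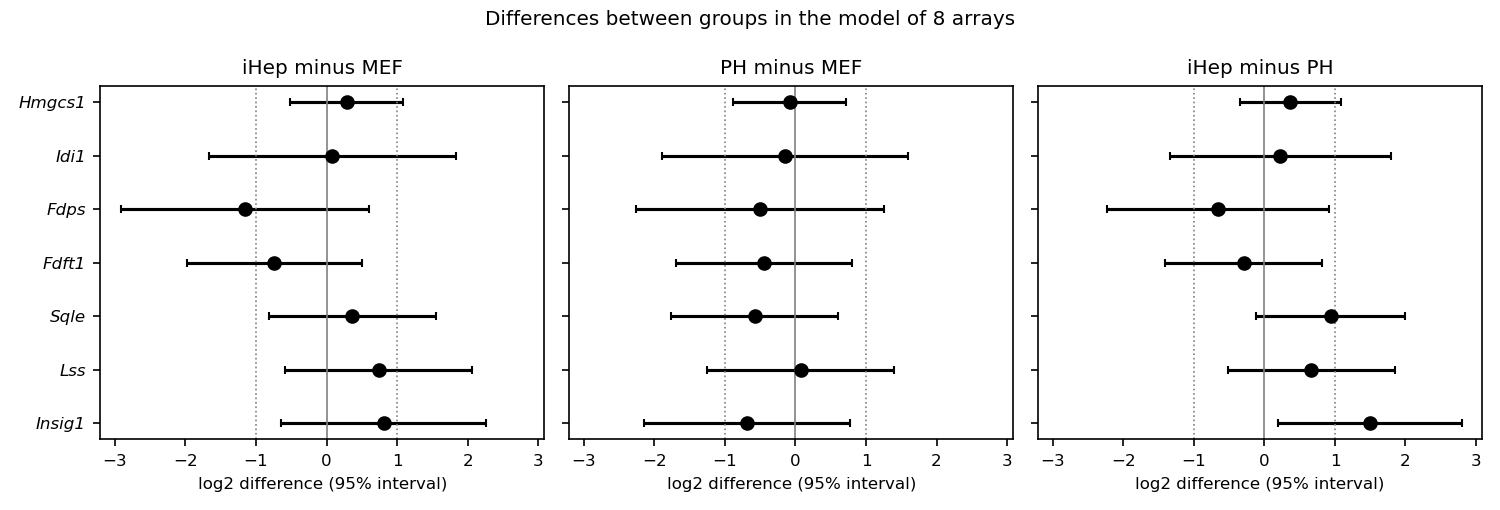
Differences in log2 signal (horizontal axis) for iHep minus MEF, PH minus MEF and iHep minus PH from left to right, with points for the estimates of the 8-array model and bars for 95% intervals, and dotted lines at a 2-fold difference. Of 21 intervals, only that of Insig1 in iHep minus PH leaves out 0, from 0.20 to 2.80.

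Between iHeps and MEFs the estimates ran from -1.16 ± 0.77 for Fdps to 0.81 ± 0.64 for Insig1 (SE), and 5 of 7 were above 0. Adjusted p in limma ran from 0.437 for Fdps to 0.959 for Idi1. The 95% intervals were wide, from -2.92 to 0.60 for Fdps and from -0.64 to 2.27 for Insig1. The median of the 7 was 0.28, against 0.16 over all genes. For 0 of the 7 were the groups without overlap, against 60.9% of all genes. The MEF array chosen decided the sign for 5 of the 7: without MEF 1 the differences were 1.68 for Idi1, 0.15 for Fdps, 0.27 for Fdft1, 1.13 for Sqle and 2.08 for Insig1, and without MEF 2 they were -1.51, -2.47, -1.75, -0.40 and -0.45. The lone MEF array left in such a fit is assumed to vary like the other groups. Within submission set 1, which holds MEF 2 and the lines, the differences were those without MEF 1. Which of the 7 passed changed between these fits although the differences did not, as the arrays behind the error changed.

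Between PH and MEFs the estimates ran from -0.69 ± 0.64 for Insig1 to 0.08 ± 0.58 for Lss (SE), and 6 of 7 were below 0, with adjusted p in limma from 0.637 to 0.943. The median of the 7 was -0.45, against 0.25 over all genes, and 0 of 7 had groups without overlap, against 38% of all genes. Lss turned to -0.18 once array medians were subtracted, so that all 7 then lay below 0. The 2 submission sets gave opposite signs. In set 1, PH 3 minus MEF 2 was above 0 for all 7 genes, from 0.53 for Hmgcs1 to 1.99 for Idi1, where the median over all genes was 0.70. In set 2, the mean of PH 1 and PH 2 minus MEF 1 was below 0 for all 7, from -0.48 for Hmgcs1 to -2.26 for Fdps, where the median over all genes was 0.02. With 1 MEF array in each set and 1 PH array in set 1, the values within a set are given here without a test. Calls from fits within a set, given further below, carry the same limit. Leaving out MEF 2 from the full model, Insig1 passed between PH and MEFs at -1.95 (adjusted p = 0.049998 in limma). With array medians subtracted, 5 of 7 remained above 0 in set 1. A fit of the difference between the sets took its error from the 3 lines and from PH 1 against PH 2. In it Idi1 differed by 3.14 ± 0.20 (SE, limma adjusted p = 0.0293), and 1.13% of all genes passed. Fdps differed by nearly as much, 3.09 ± 0.89 (adjusted p = 0.176 in limma), and had a wider spread among the lines. As deposited, 4 of 7 passed that test, against 34.5% of all genes. Set and MEF array cannot be told apart, because each set holds 1 MEF array.

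The gap between the 2 MEF arrays ran through most of the route. MEF 1 read above MEF 2 by 3.19 for Idi1 (9.11-fold), 2.63 for Fdps (6.18-fold), 2.53 for Insig1, 2.02 for Fdft1 (4.06-fold), 1.52 for Sqle (2.88-fold), 1.28 for Lss and 0.36 for Hmgcs1. No fold is given for Insig1, which was within the range of the nonspecific controls in MEF 2, or for Lss and Hmgcs1, which were so in both arrays. Thus 6 of 7 genes were at least 2-fold higher in MEF 1, against 3.56% of all genes, and 0 of 7 were as much lower, against 2.68%. Ranked among the 17097 genes by this difference, Idi1 was at place 63, Fdps 104, Insig1 113, Fdft1 188, Sqle 315 and Lss 419. The median was 2.02 for the 7 genes and -0.02 for all genes. With 1 array on each side this difference has no replicate check.

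The other enzymes of the route followed in part. Of 14 listed, 11 were on the array with a probe set of their own. Of these 11, 6 were at least 2-fold higher in MEF 1, against 3.56% of all genes, with a median difference of 1.03. The members named next were picked after their values were seen. Cyp51, which removes a methyl group from lanosterol, was higher by 3.28, Msmo1, the next methyl oxidase, by 2.39, and Sc5d, a late desaturase, by 2.10. Lbr, a sterol reductase of the inner nuclear membrane that also binds lamin, was the only one of the 11 below 0, at -0.67.

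**Figure D3:**
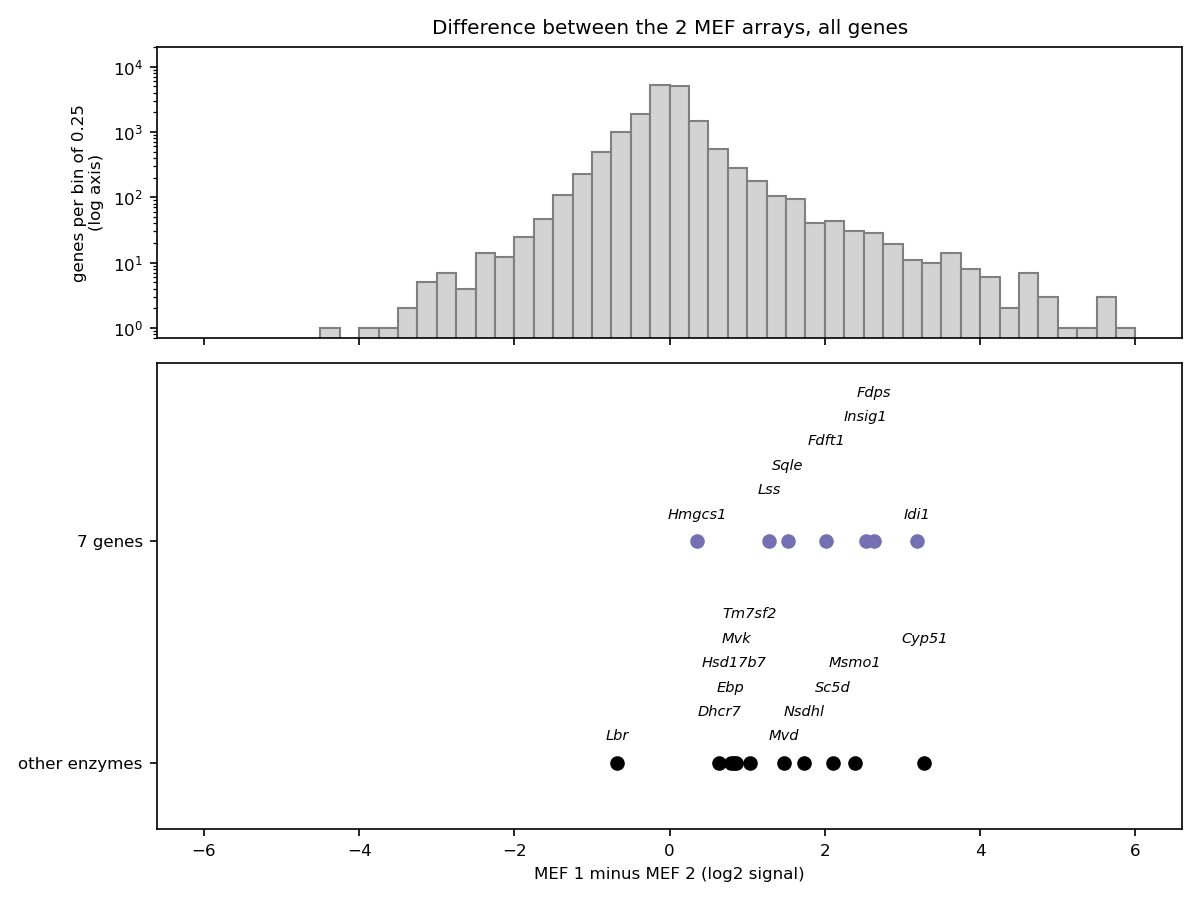
MEF 1 minus MEF 2 in log2 signal (horizontal axis) for all 17097 genes as a histogram on a log axis of genes per bin (above), and for the 7 genes and 11 other enzymes as points with heights of labels spread for reading only (below). The bulk of genes lies near 0, while 6 of the 7 genes and 6 of the 11 other enzymes lie at 1 or more to the right.

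Other gene groups differed between the same 2 MEF arrays. Of 10 fibroblast markers, 7 were at least 2-fold higher in MEF 1, against 3.56% of all genes, with a median difference of 1.44. Their summed linear signal was 18403 in MEF 1 and 9255 in MEF 2. Of 12 macrophage markers, 5 were as much lower in MEF 1, against 2.68% of all genes, and 1 as much higher. Their median difference was -0.59, with summed signals of 757 in MEF 1 and 1806 in MEF 2. Of the 12, 5 read above the highest nonspecific control in MEF 1 against 9 in MEF 2. The complement subunit C1qa read 3.92 in MEF 1 and 6.77 in MEF 2, and the adaptor Tyrobp 4.20 and 6.68. Marco went the other way, at 4.32 and 3.11, within the range of the nonspecific controls in both arrays. Of 14 cell cycle genes, 3 were at least 2-fold lower in MEF 1, against 2.68% of all genes, with a median difference of -0.71. Their summed signals were 3645 in MEF 1 and 5781 in MEF 2. The part of these groups in the cholesterol gene difference was not tested.

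Across the 8 arrays the genes largely moved together. With array medians subtracted, the 21 pairs among the 7 genes had Pearson correlations of log2 signal from -0.23 (Hmgcs1 with Fdps) to 0.94 (Hmgcs1 with Lss), with a median of 0.69, and 19 of 21 were above 0. These correlations describe 8 arrays that fall into 3 cell types and share whatever set their levels, and 2 of the genes are near the floor. The mean of the 7 genes, each centred on its own mean, was 0.41, -0.06 and 0.31 in lines 4a3, 4a3CK and 4a1CK, -0.38, -0.31 and -0.42 in PH 1, PH 2 and PH 3, and 1.19 and -0.75 in MEF 1 and MEF 2. All 7 genes were above their own mean in MEF 1 and none in MEF 2. Of the 7, 4 had their highest signal in MEF 1 and 3 in line 4a3, and 3 had their lowest in MEF 2. The rise of PH 3 seen in the raw values disappeared in this profile, in which the 3 PH arrays were nearly level.

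**Figure D4:**
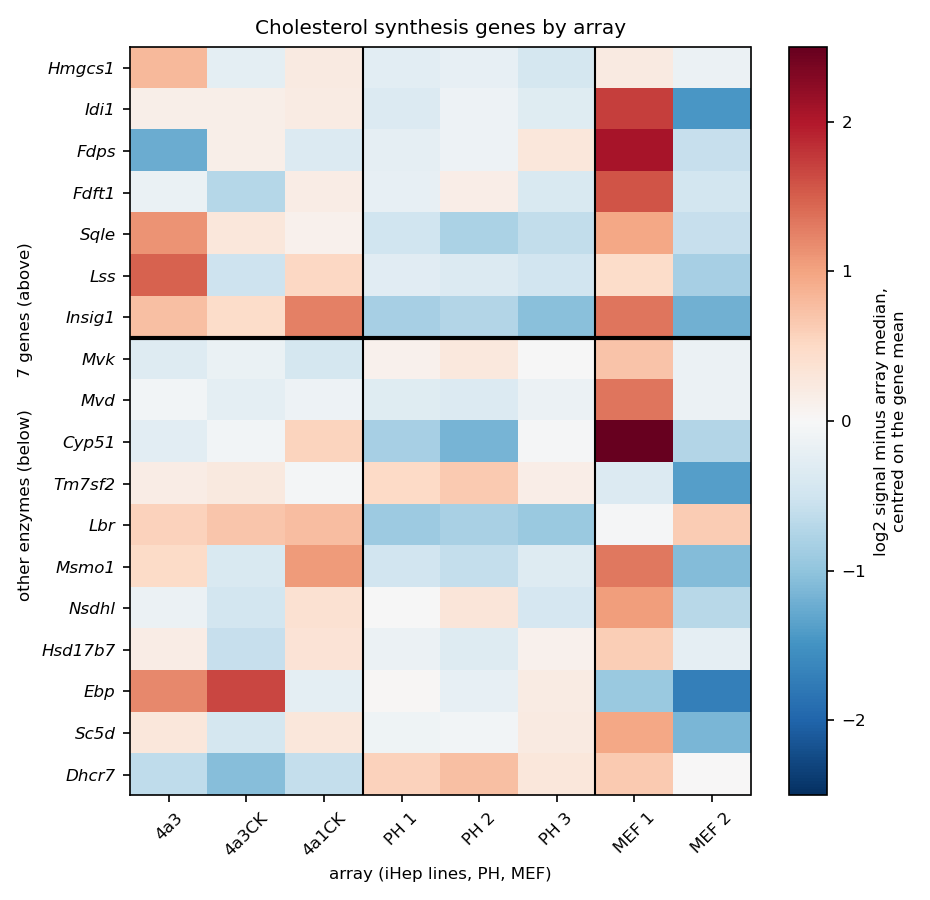
Log2 signal minus the array median, centred on each gene's mean (colour), for the 7 genes (upper rows) and 11 other enzymes (lower rows) on 8 arrays, with iHep lines, PH and MEF arrays from left to right. MEF 1 is the reddest column for most rows, the profile of the 7 genes reaching 1.19 there and -0.75 in MEF 2, and Lbr, Tm7sf2, Ebp and Dhcr7 run differently.

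Among 5167 genes outside the 7 whose standard deviation over the arrays was at least 0.5, the 10 closest to this profile by Pearson correlation over the 8 arrays were Psmb9 (0.952), Ccbe1 (0.951), Msmo1 (0.928), Pck2 (0.925), Fbxo32 (0.918), Srebf2 (0.894), Ccl8 (0.892), Map3k8 (0.890), Pfkfb3 (0.889) and Cercam (0.878). Msmo1 belongs to the route itself, and Srebf2 encodes the SREBP that chiefly drives it. Srebf2 read 6.93, 6.30 and 7.26 in lines 4a3, 4a3CK and 4a1CK, 5.85, 5.66 and 5.99 in PH 1, PH 2 and PH 3, and 7.43 and 5.69 in MEF 1 and MEF 2. As for Insig1, the lines lay above all PH arrays and MEF 1 read highest. Srebf2 is named for its likeness to a profile that Insig1 is part of, so this match follows in part from that choice. Unlike for Insig1, MEF 2 lay within the range of the PH arrays. The iHep minus PH difference of Srebf2 was 1.00 ± 0.44 (SE, limma adjusted p = 0.242). Of the remaining enzymes, Cyp51 ranked 11, Sc5d 20, Mvd 28 and Nsdhl 36.

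Of the 11 other enzymes, 2 passed between iHeps and PH, where 7.13% of all genes did, and 1 between PH and MEFs, where 5.85% did. Between iHeps and PH, Lbr rose by 1.37 ± 0.29 (adjusted p = 0.0240 in limma), with 8.70, 8.85 and 8.88 in lines 4a3, 4a3CK and 4a1CK and 7.13, 7.24 and 7.96 in PH 1, PH 2 and PH 3. Dhcr7, the reductase that yields cholesterol from its dehydro precursor, fell by 1.50 ± 0.26 (adjusted p = 0.0109 in limma), with 5.31, 4.93 and 5.32 in the lines and 6.44, 6.62 and 6.99 in PH. Lines and PH arrays did not overlap for either gene, but in the 3 lines Dhcr7 lay within the range of the nonspecific controls. Between PH and MEFs, Tm7sf2, a sterol reductase with the same reaction as Lbr, was higher by 1.56 ± 0.33 (adjusted p = 0.0289 in limma). Its readings in PH 3 and MEF 2 lay within the range of the nonspecific controls. Between iHeps and MEFs 0 of 11 passed against 6.45% of all genes. There 3 of 11 had an unadjusted p below 0.05, as did 3568 of 17097 genes. The median of the 11 was -0.15 between iHeps and MEFs, 0.05 between PH and MEFs and -0.09 between iHeps and PH. The Dhcr7 call held without each array in turn, whereas Lbr lost its call without line 4a3 or 4a1CK or PH 1 or PH 2, with adjusted p from 0.0741 to 0.0956, and stood at 0.85 within submission set 1. Tm7sf2 lost its call without line 4a3, any PH array or MEF 2, where the difference was 1.04.

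Of 9 measured genes for the processing and control of SREBPs, 1 passed between iHeps and PH and between iHeps and MEFs, where 7.13% and 6.45% of all genes did. Erlin1, an endoplasmic reticulum protein that restrains SREBP release, read 9.52, 9.23 and 8.63 in lines 4a3, 4a3CK and 4a1CK, 7.32, 7.22 and 8.00 in PH 1, PH 2 and PH 3, and 7.0 and 7.60 in MEF 1 and MEF 2. It was higher in the lines than in every other array, by 1.61 ± 0.33 over PH (adjusted p = 0.0206 in limma) and by 1.83 ± 0.36 over MEFs (adjusted p = 0.0217 in limma). Averaging all its probe sets gave 0.87 and 1.13 with adjusted p of 0.0979 and 0.0681, and both calls were also lost without line 4a3. The call over PH was lost without PH 1 or PH 2, that over MEFs without either MEF array, and both within submission set 1, at 1.12 and 1.53. Without the 2-fold bound, 2 of 9 had an adjusted p below 0.05 between iHeps and PH, against 1359 of 17097 genes. The second was Scap, named after its value was seen, which differed by -0.98 ± 0.20 (adjusted p = 0.0203 in limma). Between PH and MEFs 0 of 9 passed in limma, against 5.85% of all genes. There 0 of 9 had an unadjusted p below 0.05, against 2796 of 17097 genes.

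Of 12 measured genes that move or store sterol, 2 passed between iHeps and PH and 1 between PH and MEFs, where 7.13% and 5.85% of all genes did. Npc1, which exports cholesterol from lysosomes, fell by 1.87 ± 0.33 in iHeps relative to PH (adjusted p = 0.0114 in limma), with 5.74, 6.94 and 5.99 in lines 4a3, 4a3CK and 4a1CK and 7.88, 8.00 and 8.39 in PH 1, PH 2 and PH 3. Stard5, a sterol-binding carrier, fell by 1.77 ± 0.39 in the same comparison (adjusted p = 0.0293 in limma), and Scp2, a peroxisomal sterol carrier, was higher in PH than in MEFs by 1.37 ± 0.33 (adjusted p = 0.0487 in limma). Stard5 in the 3 lines and Npc1 in line 4a3 lay within the range of the nonspecific controls. The Npc1 call held without each array in turn but not within submission set 1 (-2.17, adjusted p = 0.0685 in limma), the Stard5 call was lost on leaving out any line or PH 1, and the Scp2 call on leaving out any array. Without MEF 2 the Scp2 difference was 1.02. Of 8 measured targets of LXR, the receptor that answers to excess sterol, Mylip, a ubiquitin ligase for lipoprotein receptors, passed in those comparisons. It read 7.76, 7.22 and 8.55 in lines 4a3, 4a3CK and 4a1CK, 5.62, 5.40 and 5.91 in PH 1, PH 2 and PH 3, and 8.57 and 7.50 in MEF 1 and MEF 2. The reading in PH 3 lay within the range of the nonspecific controls. Mylip was higher in iHeps than in PH by 2.20 ± 0.40 (adjusted p = 0.0132 in limma) and lower in PH than in MEFs by a log2 difference of -2.39 ± 0.44 (adjusted p = 0.0145 in limma). Without PH 1 or PH 2 both calls missed the threshold, with adjusted p from 0.0510 to 0.0569, and without MEF 1 the PH against MEF call did too, at a difference of -1.85.

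Of 14 measured genes of fatty acid synthesis, which SREBPs also serve, 2 passed between iHeps and MEFs and 2 between iHeps and PH, all lower in iHeps, where 6.45% and 7.13% of all genes passed in either direction, with list medians of -0.34 and -0.38. Mid1ip1, an activator of acetyl-CoA carboxylase, read 6.52, 6.07 and 6.61 in lines 4a3, 4a3CK and 4a1CK, 8.06, 7.92 and 8.11 in PH 1, PH 2 and PH 3, and 8.15 and 7.47 in MEF 1 and MEF 2. It was lower in iHeps than in PH by a log2 difference of -1.63 (adjusted p = 0.00674 in limma) and than in MEFs by -1.41 (adjusted p = 0.0218 in limma). Acly, which makes the acetyl-CoA that both fatty acids and cholesterol start from, differed by -1.84 between iHeps and MEFs (adjusted p = 0.0288 in limma), and Me1, a source of NADPH, by -2.38 between iHeps and PH (adjusted p = 0.0261 in limma). Gpam, which begins glycerolipid assembly, was higher in PH than in MEFs by 2.87 (adjusted p = 0.0423 in limma). The other 10 of 14 measured members passed nowhere. Of these 5 calls, that of Mid1ip1 between iHeps and PH held without each array in turn, and the others did not. On the branch that leaves the route at farnesyl diphosphate, 11 genes were measured. Of these, 1 passed between iHeps and PH and 1 between iHeps and MEFs, where 7.13% and 6.45% of all genes did. Between PH and MEFs 0 passed, against 5.85% of all genes. Zmpste24, a protease that trims prenylated proteins, was lower in iHeps than in PH by -1.51 (adjusted p = 0.00472 in limma). Icmt, which methylates them, was lower in iHeps than in MEFs by -1.19 (adjusted p = 0.0135 in limma). In line 4a3 Icmt lay within the range of the nonspecific controls. The Zmpste24 call held without each array in turn, and the Icmt call was lost without line 4a3 or 4a1CK or either MEF array.

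The 3 iHep lines differed from each other within the route, each by a single array and so without a test. Between 4a3CK and 4a3, which differ by c-Myc and Klf4, Fdps was higher in 4a3CK by 1.42 (2.67-fold), while Lss differed by -1.95 and Hmgcs1 by -1.0. Over all genes 6.47% were at least 2-fold higher and 3.33% as much lower in this pair. Idi1 differed by 0.04, Insig1 by -0.25, Fdft1 by -0.50 and Sqle by -0.79. Fdps thus ran opposite to Lss and Hmgcs1 in this pair, though the probe sets of Lss and Hmgcs1 were dim.

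Between 4a3CK and 4a1CK, which differ in Foxa3 or Foxa1, 0 of 7 genes reached a 2-fold difference, against 10.7% of all genes in either direction, and the differences ran from -0.95 for Lss to 0.54 for Fdps. Between 4a1CK and 4a3, which differ in the Foxa factor and in c-Myc and Klf4, 1 of 7 reached it, Sqle at -1.05, against 2.6% of all genes lower by as much. Lss followed at -0.99 and Fdps was higher by 0.88. Idi1 stayed within 0.04 in all 3 pairs. Of the 11 other enzymes, 0 differed by 2-fold between 4a3CK and 4a3, 1 was higher and 1 lower between 4a3CK and 4a1CK, and 1 was lower between 4a1CK and 4a3.

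**Figure D5:**
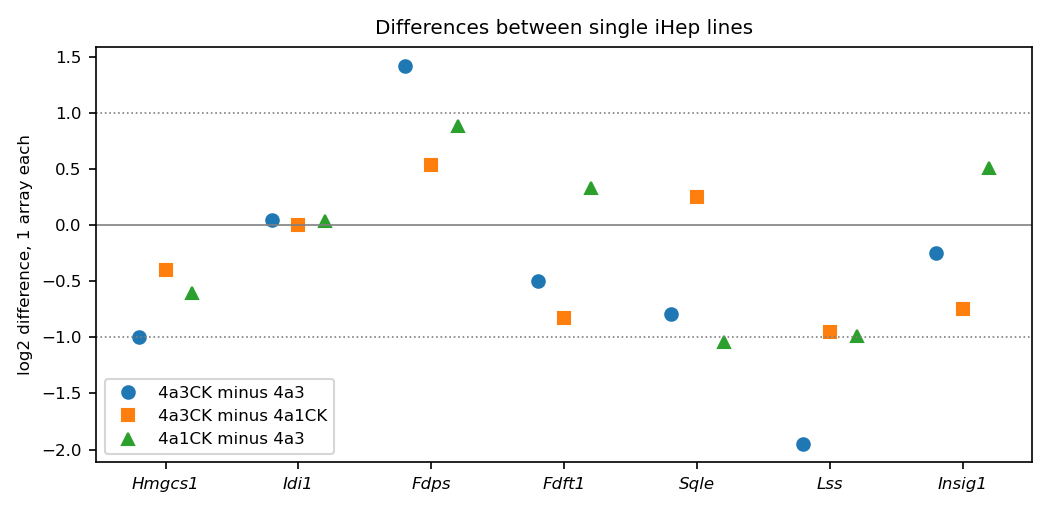
Difference in log2 signal between single iHep lines (vertical axis) for each of the 7 genes, with circles for 4a3CK minus 4a3, squares for 4a3CK minus 4a1CK and triangles for 4a1CK minus 4a3, and dotted lines at a 2-fold difference. Fdps lies above 0 and Lss and Hmgcs1 below 0 in every pair, with 1.42 and -1.95 for Fdps and Lss in 4a3CK minus 4a3.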

How the data were processed

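Total RNA was labelled with biotin and hybridized, with 8 arrays in all. Values were deposited as log2 signal for every probe set, and the authors made them by robust multi-array averaging (RMA) in Partek, per the submitters' processing notes, with versions not given in the sources used here. They were used as deposited. Of 45141 probe sets, 28898 had 1 gene symbol, for 17097 genes, and the rest several (551) or none (15692). Of a gene's probe sets the one with the highest mean was kept. Arrays have no sequencing depth, and their number limits the precision.

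A model of 3 groups (iHep n = 3, PH n = 3, MEF n = 2) was fitted in limma 3.58.1 (R 4.3.3, functions lmFit and eBayes) with 5 residual degrees of freedom. Two-sided p-values received the Benjamini-Hochberg adjustment across 17097 genes. The scripts were tested on simulated data. The 7 genes, the 12 gene lists and the tests were chosen with earlier results of these data known. Named were the 7 genes, list genes that passed, up to 3 markers per cell type and the 10 genes most like the mean profile. Nonspecific controls are 23 control probe sets with no target in the sample. Summed signals are sums of 2 to the power of the log2 value. Promoters were searched on both strands. Alternatives were a gene's mean over its probe sets, no probe sets that can bind several transcripts, no dim genes (no value above the 40th percentile, 4.09), quantile normalization with and without PH 3, subtracted array medians, a trended and robust variance, only the compared groups, PH 1 and PH 2 averaged, the submission set as a block or alone, a replicate block and leaving out each array. The test between submission sets, the 4 arrays without a block and the crossed pairing were chosen after seeing the data.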

Additional observations from a re-analysis of the deposited data

Results flagged for a closer look

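The PH minus MEF difference of Idi1 passed a test of its difference between the 2 submission sets, at 3.14 ± 0.20 (SE, limma adjusted p = 0.0293) with array medians subtracted. That difference was 1.16 in set 1, from PH 3 and MEF 2, and -1.98 in set 2, from PH 1, PH 2 and MEF 1. With values as deposited, Fdps, Fdft1 and Insig1 passed the same test too, alongside 34.5% of all genes. The error of this test came from the 3 lines, whose Idi1 signal had a standard deviation of 0.02, and from PH 1 against PH 2. The second Idi1 probe set, with a standard deviation of 0.18 among the lines, was not put to this test. MEF 1 alone read above MEF 2 by 3.19, a difference with no replicate check. Each set holds 1 MEF array, so set and array cannot be told apart.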

How the results depend on the processing

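Of 427 values of the 7 genes under the alternatives, 379 kept their direction and their side of the threshold, 37 turned in sign and 11 newly passed in the same direction. Idi1 between PH and MEFs in set 1 both turned and passed. Within submission set 1, between PH and MEFs, Hmgcs1 stood at 0.53, Idi1 1.99, Fdps 1.69, Fdft1 0.90, Sqle 0.79 and Insig1 0.98, with 1 of the 7 and 3485 of all genes called, and within set 2 Lss stood at -0.80, with 5 of the 7 and 2263 called. In set 1, between iHeps and MEFs, Fdps was 0.15 and Fdft1 0.27, with 1 of the 7 and 492 called, and between iHeps and PH, Hmgcs1 was -0.071 and Idi1 -0.31, with 2178 called. These fits use fewer arrays and 1 MEF array each, so that their error comes from the lines or from PH 1 against PH 2. The iHep against PH values of set 1 subtract PH 3 as deposited, which read higher over nearly all genes. With array medians subtracted, PH 3 read below each line for Hmgcs1 and Idi1. Lss between PH and MEFs was -0.17 with quantile normalization, -0.18 with array medians subtracted and -0.14 with quantile normalization and no PH 3, and Hmgcs1 was 0.027 with PH 1 and PH 2 averaged. The mean of all probe sets gave Idi1 -0.11 between iHeps and MEFs and -0.026 between iHeps and PH, and the set as a block gave Fdft1 0.088 between iHeps and PH. Quantile normalization without PH 3 called 1800 genes between iHeps and MEFs, averaging PH 1 and PH 2 called 588 between iHeps and PH, and a model of those 2 groups alone called 1 of the 7. The cause was not tested.

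Leaving out each array in turn, iHeps against MEFs called 471 to 1874 genes and 0 to 1 of the 7, with Idi1 -1.51 to 1.68, Fdps -2.47 to 0.15, Fdft1 -1.75 to 0.27, Sqle -0.40 to 1.13 and Insig1 -0.45 to 2.08. PH against MEFs called 575 to 1156 and 0 to 1, with Hmgcs1 -0.30 to 0.10, Idi1 -1.74 to 1.45, Fdps -1.82 to 0.81, Fdft1 -1.46 to 0.56, Sqle -1.34 to 0.19, Lss -0.57 to 0.72 and Insig1 -1.95 to 0.58. iHeps against PH called 576 to 1806 and 0 to 1. Without line 4a3 the counts were 564 for iHeps against MEFs and 604 for iHeps against PH, and without PH 3 PH against MEFs called 1007.

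Replicate numbers are shared by MEF 1 and PH 1 and by MEF 2 and PH 2. Deviations from the group means over these 4 arrays correlated at -0.20 within each numbered pair. With 2 arrays per group both pairs must give the same value, which does not decide whether the arrays were paired. With PH 3 in the PH mean, the correlations were -0.02 and -0.14. On these 4 arrays a replicate block called 900 genes, no block 1475 and the crossed pairing 1307, none of them any of the 7, and Lss was -0.15 in all 3. At a difference of at least 2, single lines gave 381 genes for 4a3CK minus 4a3, 541 for 4a3CK minus 4a1CK and 226 for 4a1CK minus 4a3, and 0 of the 7 in the first and the third. For 4a3CK minus 4a1CK, subtracted medians and quantile normalization each put 1 of the 7 past 1, and for 4a1CK minus 4a3 quantile normalization put 2 there.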
